A study of Mus musculus with 7 samples.

Results

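The 35 genes described here encode enzymes and a regulator of fatty acid oxidation, and were taken as every probe whose gene name in the scanner files was on a list of these genes. They are 35 of 37074 gene names on the array and had 62 of the 56605 probes on the array. Total RNA came from a single abdominal mammary gland of each of 7 nulliparous adult FVB mice, which were 20 to 25 weeks old and in diestrus. Wild-type animals (WT) gave 3 arrays, and PRA transgenic animals gave 4. The PRA transgenics carried an additional gene for isoform A of the progesterone receptor, driven by GAL-4 from a cytomegalovirus promoter, which is not restricted to mammary epithelium, and their glands were labelled preneoplastic. Lymph nodes had been excised from the gland, and a fatty layer was discarded during RNA extraction. Gland RNA was labelled with Cy5 and hybridised beside Cy3-labelled Universal Mouse Reference RNA, a pool of 11 cell lines, so that each value below is the log2 ratio of gland to reference.

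Fatty acid oxidation shortens acyl chains by acetyl units in a repeated cycle. Long chains enter the mitochondrion through the carnitine shuttle, acyl-CoA dehydrogenases open the cycle and pass electrons to the electron transfer flavoprotein, and hydratase, dehydrogenase and thiolase steps complete each round. Peroxisomes carry out a related pathway on very long chains, and the nuclear receptor PPARα activates many of these genes. In the mammary gland the pathway runs in epithelial cells, adipocytes and any muscle that is taken with the gland, so a whole-gland value is a mixture, and fewer cells of a type cannot be told apart from less RNA per cell.

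A probe was tested if its Cy5 signal stood well above background on each WT array or on each PRA array, and all 35 genes had such a probe. In all 60 of the 62 probes were tested, and the 2 that were not are a probe of Acad9 and a probe of Acad11, both of which also had tested probes. The brightest probe stands for a gene unless another is named. In Cy5, 62.7% to 66.2% of probes were well above background on WT arrays and 56.6% to 60.2% on PRA arrays. In Cy3, the common reference, the shares were 53.2% to 54.0% on WT arrays and 47.2% to 50.6% on PRA arrays, so both channels differed. All 7 arrays were on 1 slide in 1 scan, but the WT arrays were in row 1 and the PRA arrays in row 2, so the effect of the row cannot be told apart from that of genotype. Markers of luminal epithelium (8 of 8), basal epithelium (7 of 7) and white adipocytes (9 of 9) were above background on all 7 arrays. Although lymph nodes had been excised, lymphocyte markers were high on the first WT array. There B cell markers averaged a log2 ratio of 0.68, against -2.32 to -1.49 on the other arrays. T cell markers averaged 1.98 there, against 0.00 to 0.52. The part of lymphoid tissue in the values below was not tested.

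Of the probes that separated the genotypes, only Etfa A_55_P2029678 was the brightest of its gene. The 60-base sequences of 6 of the 7 probes with an unadjusted limma p under 0.05 are given because they show which stretch of each transcript was measured. They are printed 5′ to 3′ on the transcript's strand as the scanner files hold them, each with its mm9 position, and all 6 have at least 1 reading frame without a stop codon. The probe left out, of Acad8, had a Cy5 signal near background on every PRA array.
Etfa A_55_P2029678 (chr9:55309428-55309487, minus strand, transcript bases 1076 to 1135): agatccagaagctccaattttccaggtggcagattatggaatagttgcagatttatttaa
Etfa A_55_P2133637 (chr9:55343560-55343619, minus strand, bases 371 to 430): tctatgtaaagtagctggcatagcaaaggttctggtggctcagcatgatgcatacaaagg
Etfa A_66_P105591 (chr9:55312655-55330127, minus strand, bases 942 to 1001): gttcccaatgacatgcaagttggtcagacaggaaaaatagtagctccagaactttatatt
Crat A_55_P1983314 (chr2:30265479-30265538, minus strand, bases 758 to 817): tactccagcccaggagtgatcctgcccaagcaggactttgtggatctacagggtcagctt
Acadsb A_66_P140128 (chr7:138568047-138568106, plus strand, bases 248 to 307): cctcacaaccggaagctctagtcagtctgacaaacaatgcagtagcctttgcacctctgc
Acad12 A_52_P671700 (chr5:122055701-122057221, minus strand, bases 1089 to 1148): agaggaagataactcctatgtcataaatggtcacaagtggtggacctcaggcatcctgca
The 3 Etfa probes do not overlap on the transcript. A_66_P105591 covers 17473 bases of the genome and the Acad12 probe 1521, so both cross a splice junction.

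To find how fatty acid oxidation genes differed with PRA overexpression, the 2 genotypes were compared with limma over all 34288 tested probes. The genes as a group differed little. Of the 35 genes, 22 were higher in PRA transgenics and 13 lower, or 62.9% higher against 54.2% of all tested probes. With the median of each array subtracted 17 of 35 were higher, and with Cy5 alone 18. The number was 20 with array weights, 21 with normexp and loess, 23 with the replicate number as a block and 25 with quantile normalization. The median log2 fold change was 0.03, beside 0.02 over all tested probes. The values of the brightest probes ran from -0.48 to 0.42, so none of these estimates reached 1.5-fold. For 28 of the 35 genes (80%, against 67.5% of all tested probes) the change was smaller than the standard deviation within genotypes. With Benjamini-Hochberg adjustment in limma over all probes, 0 of 35 genes had an adjusted p under 0.05, and the lowest was 0.504, where 0.0117% of all tested probes passed. Without adjustment 1 of 35 genes passed in limma (2.86%, against 9.02% of all tested probes). In the methods' t-test, which was unpaired, 2 passed, where 9.21% of all tested probes did, and 0 passed after adjustment. The gene that passed limma was Etfa.

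**Figure D1:**
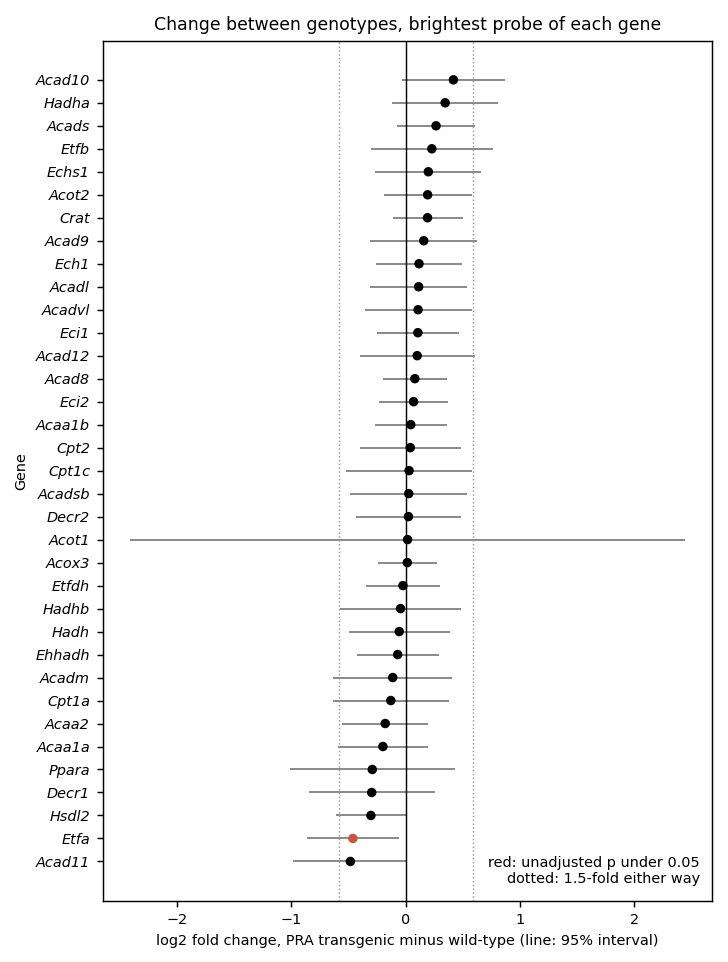
Log2 fold change of PRA transgenics over WT for the brightest probe of each of the 35 genes (points) with the 95% interval from limma (lines), and dotted lines at 1.5-fold. The interval of Etfa, in red, does not reach 0, and that of Acot1 is the widest.

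The number of arrays limits the precision of these values. For 19 of the 35 genes the 95% interval lay within 1.5-fold in both directions, and for 33 it lay within 2-fold. The exceptions at 2-fold were Acot1, with an interval from -2.41 to 2.44 on the log2 scale, and Ppara, from -1.01 to 0.43.

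In the carnitine shuttle, the log2 fold changes at the brightest probes were all small. Cpt1a, the liver-type carnitine palmitoyltransferase that controls entry of long chains, had log2 ratios of 0.58, 0.04 and 0.32 on the WT arrays. On the PRA arrays they were -0.05, 0.26, -0.08 and 0.61. The genotypes overlapped, with the highest value in a PRA transgenic, and the log2 fold change was -0.13 (SE 0.22, adjusted p = 0.905 in limma). Cpt1c, a relative expressed mainly in brain, changed by 0.03 and was below the reference on all 7 arrays. Cpt2, the inner-membrane enzyme, changed by 0.04 at its brightest probe. Its other probe gave 0.45 (unadjusted p = 0.109 in limma), and 0.47 in Cy5 alone. Crat, which exchanges short acyl groups with carnitine, changed by 0.19 at its brightest probe.

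The other Crat probe separated the genotypes. A_55_P1983314 had log2 ratios of 2.12, 2.21 and 2.03 in WT and 2.87, 2.44, 2.56 and 2.74 in PRA transgenics. All PRA values lay above all WT values, with a log2 fold change of 0.53 (SE 0.14, unadjusted p = 0.00647, adjusted p = 0.405 in limma). Cy5 alone gave 0.55, so the reference channel moved little, but it was well above background on 5 of the 7 arrays only.

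The 10 acyl-CoA dehydrogenases carry out the first step of the cycle on chains of different length. In PRA transgenics 8 of them were higher and 2 lower, or 80% higher against 54.2% of all tested probes. Their median log2 fold change was 0.10, and 0 passed at an unadjusted limma p under 0.05, where 9.02% of all tested probes did. The very long-chain and long-chain enzymes Acadvl and Acadl each changed by 0.11. The short-chain enzyme Acads changed by 0.27. Acadm, the medium-chain enzyme, had log2 ratios of 2.78, 3.19 and 2.63 in WT and of 3.18, 2.40, 2.71 and 2.74 in PRA transgenics. These values overlapped almost fully, and the log2 fold change was -0.11 (SE 0.22, adjusted p = 0.923 in limma). The remaining values were 0.03 for Acadsb (short branched chains), 0.08 for Acad8 (isobutyryl-CoA), 0.16 for Acad9, which also assembles complex I, and 0.10 for Acad12.

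The largest rise and the largest fall among the brightest probes of the 35 genes were those of Acad10 and Acad11, a choice made after the values were seen. Acad10 had log2 ratios of 0.34, 0.13 and -0.41 in WT and of 0.55, 0.39, 0.48 and 0.32 in PRA transgenics. The lowest PRA value lay just under the highest WT value, and the log2 fold change was 0.42 (SE 0.19, unadjusted p = 0.0634, adjusted p = 0.584 in limma). Without the third WT array, which was the lowest, the change was 0.20. Acad11, a dehydrogenase of long chains, had log2 ratios of 3.51, 3.75 and 3.39 in WT and of 3.30, 2.72, 2.81 and 3.43 in PRA transgenics. The groups overlapped through the fourth PRA array, and the log2 fold change was -0.48 (SE 0.21, unadjusted p = 0.0559, adjusted p = 0.571 in limma). Its other tested probes gave -0.17 and -0.41.

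Dimmer probes of Acad12, Acadsb and Acad8 passed at an unadjusted p under 0.05, and those of Acad12 and Acadsb gave larger values than the brightest probe of their gene. Acad12 probe A_52_P671700 was only slightly dimmer than the brightest (mean log2 Cy5 of 6.57 against 6.69), which is annotated to a different transcript. Probe A_52_P671700 had log2 ratios of 0.46, 0.96 and 0.52 in WT and 1.18, 1.20, 1.27 and 1.45 in PRA transgenics, without overlap. Its log2 fold change was 0.63 (SE 0.16, unadjusted p = 0.0055, adjusted p = 0.405 in limma), the lowest p of the 60 probes. Between genotypes Cy5 alone differed by 0.25 and Cy3, the reference, by -0.37, so more of the ratio came from the reference channel than from the gland. Acadsb probe A_66_P140128 had log2 ratios of 1.40, 1.45 and 1.04 in WT and of 2.00, 1.79, 2.03 and 1.51 in PRA transgenics. All PRA values again lay above the WT values (0.53, SE 0.18, unadjusted p = 0.0196 and adjusted p = 0.463 in limma), and Cy5 alone gave 0.54. The Acad8 probe A_55_P2587991 had Cy5 well above background on 3 of 3 WT and 0 of 4 PRA arrays, and the reference on 0 of 7, so it was tested only through the WT arrays and no fold change is given. Its genotypes overlapped, and the higher ratio in PRA transgenics came from the reference channel, which differed by -0.92, while Cy5 alone differed by -0.19.

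Etfa, the α subunit of the electron transfer flavoprotein, which takes electrons from all acyl-CoA dehydrogenases of the mitochondrion, was lower in PRA transgenics at each of its 3 probes. At the brightest, A_55_P2029678, the log2 ratios were 1.72, 2.10 and 1.78 in WT and 1.70, 1.13, 1.36 and 1.43 in PRA transgenics. The PRA values all lay under the WT values, though the first PRA array (1.70) came close to the first WT array (1.72). The group means were 1.87 ± 0.20 (SD, n = 3) and 1.40 ± 0.24 (SD, n = 4). This is a log2 fold change of -0.46 (SE 0.17, or 1.38-fold lower), with an unadjusted p of 0.0308 and an adjusted p of 0.504 in limma.

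The other Etfa probes, which lie upstream on the transcript, gave like values. For A_55_P2133637 the log2 ratios were 1.29, 1.62 and 1.31 in WT and 1.05, 0.77, 0.93 and 1.14 in PRA transgenics, a change of -0.43 (unadjusted p = 0.0203 in limma). For A_66_P105591 they were 1.31, 1.61 and 1.37 in WT and 1.21, 0.70, 0.84 and 1.11 in PRA transgenics, a change of -0.46 (unadjusted p = 0.0246 in limma). Both sets of groups were separate, with the second WT array highest and the second PRA array lowest at all 3 probes. The probes measured the same 7 RNA samples and are not independent replicates. Cy5 alone gave -0.39, -0.52 and -0.42. The call at the brightest probe was lost without the second WT array (unadjusted p = 0.11 in limma), the second PRA array (0.0718), the third PRA array (0.0652) or the fourth (0.0525), with log2 fold changes from -0.56 to -0.35 whichever array was left out.

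The partners of Etfa did not pass the test. Etfb, the β subunit of the same protein, had a log2 fold change of 0.23 (adjusted p = 0.814 in limma), and its other probe gave 0.26. Etfdh, the oxidoreductase that passes the electrons on to ubiquinone, had -0.02. Its other probe gave -0.33 (unadjusted p = 0.254 in limma), but -0.01 in Cy5 alone. The difference between Etfa and Etfb was not tested.

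**Figure D2:**
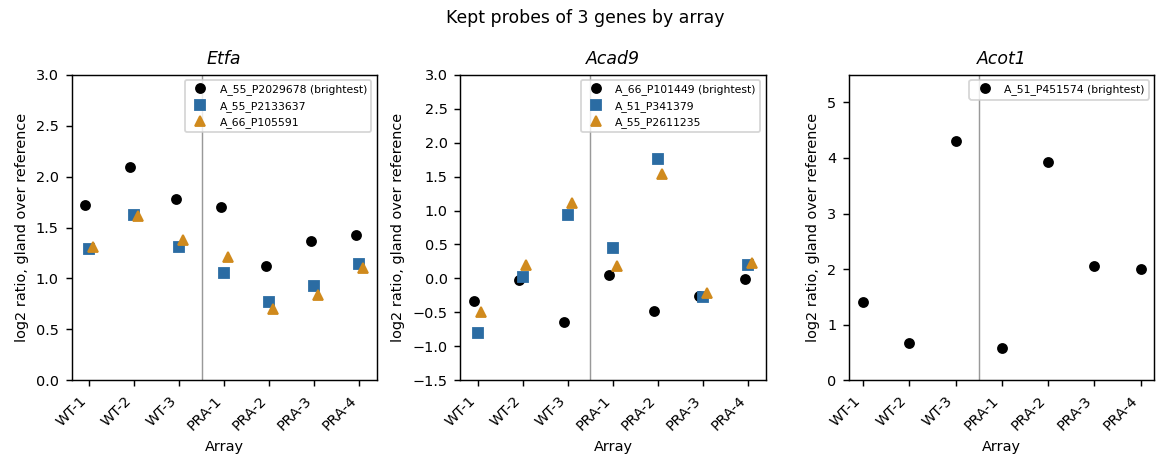
Log2 ratio of gland to reference on each of the 7 arrays for the tested probes of Etfa, Acad9 and Acot1, with WT arrays left of the grey line and PRA arrays right of it; the y axes differ. All 3 Etfa probes are lower on the PRA arrays, while 2 Acad9 probes and Acot1 are highest on the third WT and the second PRA array.

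In the later steps of the mitochondrial cycle, Hadha, the α subunit of the trifunctional protein, had log2 ratios of 0.64, 0.37 and 0.71 in WT and of 0.84, 1.02, 1.28 and 0.53 in PRA transgenics. Only the fourth PRA array lay within the WT range, and the log2 fold change was 0.35 (SE 0.20, unadjusted p = 0.121, adjusted p = 0.657 in limma). Hadhb, the β subunit, had -0.04. The short-chain hydratase Echs1 had 0.20, the short-chain dehydrogenase Hadh -0.06 and the thiolase Acaa2 -0.18. Of the enzymes that prepare unsaturated chains, in mitochondria or peroxisomes, Ech1 had 0.12, Eci1 0.11, Eci2 0.07, Decr2 0.02 and Decr1 -0.30. None of these 10 genes passed at an unadjusted limma p under 0.05, where 9.02% of all tested probes did.

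Among the peroxisomal enzymes, the acyl-CoA oxidase Acox3 had a log2 fold change of 0.01, the bifunctional Ehhadh -0.07, and the thiolases Acaa1a and Acaa1b -0.20 and 0.04. Acaa1a and Acaa1b are near-identical in sequence, and so are Acot1 and Acot2, so their probes may share signal. Probes of a gene went in both directions for 3 of the 18 genes with more than 1 tested probe, which were Acadsb (-0.25 to 0.53), Acox3 (-0.23 to 0.11) and Acaa1a (-0.20 to 0.14). At the dimmer Acaa1a probe the PRA values of 1.02, 1.01, 0.99 and 0.92 all lay above the WT values of 0.77, 0.87 and 0.90, but by little (unadjusted p = 0.226 in limma). Hsdl2, a hydroxysteroid dehydrogenase-like protein named after its values were seen, had log2 ratios of 3.04, 3.24 and 3.22 in WT and of 3.04, 2.71, 2.78 and 2.91 in PRA transgenics. The highest PRA value matched the lowest WT value to 2 decimals, and the change just missed the threshold (-0.30, SE 0.13, unadjusted p = 0.0501 and adjusted p = 0.554 in limma). Its other probe gave -0.04. The mitochondrial thioesterase Acot2 had 0.19.

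Ppara, the gene of PPARα, was far above the reference in both genotypes, with log2 ratios of 4.89, 3.88 and 4.60 in WT and of 4.57, 3.78, 4.45 and 3.85 in PRA transgenics. The genotypes overlapped, and the log2 fold change was -0.29 (SE 0.31, adjusted p = 0.827 in limma). Its reference channel was well above background on 2 of the 7 arrays, so the height of the ratio is poorly measured. Cy5 alone gave -0.35.

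Over all 60 tested probes, 7 passed at an unadjusted limma p under 0.05 (11.7%, against 9.02% of all tested probes), 4 higher and 3 lower, and the 3 lower were all of Etfa. A further condition of 1.5-fold left 2 (3.33%, against 4.53%). Both counts include the Acad8 probe, and over the 59 probes whose Cy5 cleared background on all 7 arrays they were 6 and 1. In a limma fit of such probes alone 7 passed at an unadjusted p under 0.05, where 8.97% of all 30210 probes in that fit did. The PRA arrays all lay above the WT arrays for 4 probes (6.67%, against 5.42%) and all below for 3 probes (5%, against 4.53%). These shares stood near those of all tested probes.

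Some of the genes varied widely between animals of 1 genotype, although the median standard deviation within genotypes was 0.25 over the 35 genes and 0.27 over all tested probes. Acot1, a cytosolic acyl-CoA thioesterase known as a PPARα target, was the extreme, and was singled out after its values were seen. Its log2 ratios were 1.41, 0.68 and 4.30 in WT and 0.58, 3.92, 2.07 and 2.01 in PRA transgenics. Values near 4 and values under 1 thus occurred in both genotypes, and the range of 3.72 log2 units was 13.1-fold. The range was 3.72 in Cy5 alone and 0.21 in the reference. The standard deviation within genotypes, 1.61, was larger than that of 99.6% of tested probes, and the log2 fold change was 0.02 (SE 1.03).

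Acad9 was highest on the same pair of arrays as Acot1 at 2 of its 3 tested probes. A_51_P341379 gave log2 ratios of -0.80, 0.02 and 0.94 in WT and of 0.45, 1.76, -0.27 and 0.21 in PRA transgenics, a 5.87-fold range. A_55_P2611235 gave -0.49, 0.21 and 1.11 in WT and 0.19, 1.54, -0.21 and 0.23 in PRA transgenics, a 4.09-fold range. At both, the second PRA array was the highest and the third WT array next, while for Acot1 the third WT array was the highest. Over all tested probes, deviations from the genotype mean on these 2 arrays correlated at 0.38, the highest value of any WT and PRA pair. Such a likeness was thus not confined to these genes. The brightest Acad9 probe, A_66_P101449, is annotated to a different transcript from the other 2 tested probes. It had a range of only 0.69 log2 units, and was lowest on the third WT array. Skeletal muscle markers averaged a log2 ratio of 3.69 on that WT array and -0.95 on the second PRA array. The part of muscle in the values of Acot1 and Acad9 was not tested. Acad9 and these probes were singled out after their values were seen.

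**Figure D3:**
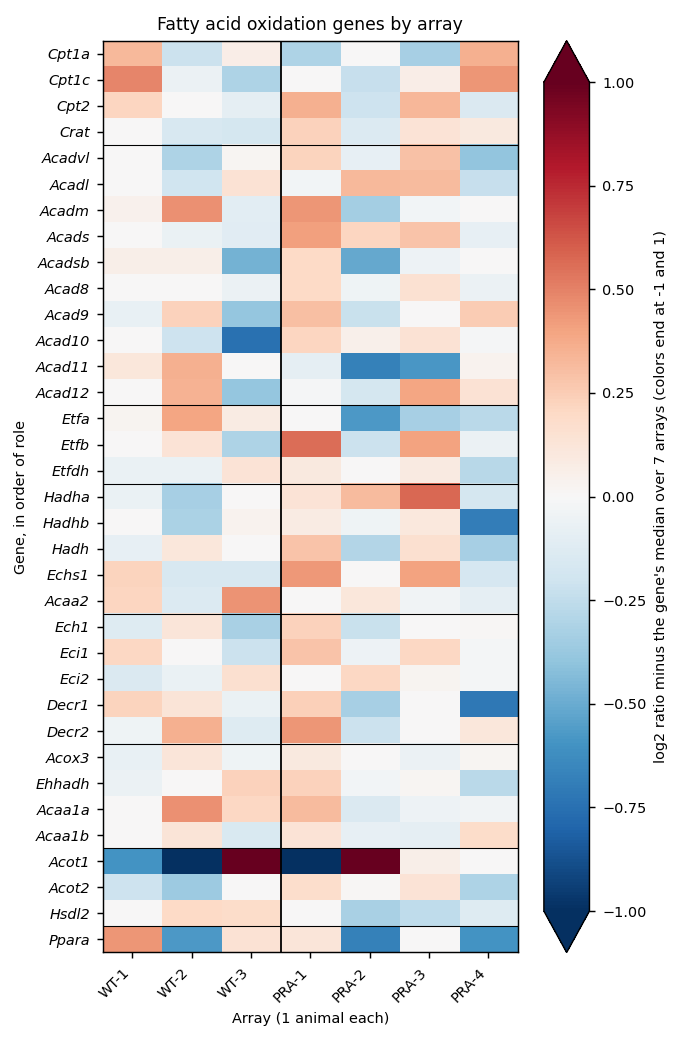
Log2 ratio of each gene's brightest probe on each array, minus the gene's median over the 7 arrays, with genes in order of role and a vertical line between WT and PRA arrays. The first PRA array is high for many genes, Etfa is low on 3 PRA arrays, and Acot1 reaches past the ends of the color scale on 4 arrays.

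Single animals also stood out across many of the genes. The first PRA array held the highest value of 15 of the 35 genes (42.9%, against 19.5% of all tested probes). The lowest value lay on the third WT array for 11 genes (31.4%, against 18.6%), on the second PRA array for 9 (25.7%, against 14.9%) and on the fourth PRA array for 8 (22.9%, against 15.9%). The mean log2 ratio of the 35 genes was 1.65, 1.60 and 1.62 on the WT arrays and 1.76, 1.55, 1.70 and 1.53 on the PRA arrays. PRA arrays thus held both the highest mean and the lowest. The first PRA array was also the highest in markers of white adipocytes, which averaged 5.80 there and 5.08 to 5.45 on the other 6 arrays, and in the mean ratio of brown adipocyte markers, at 4.97 there against 3.94 to 4.74. The summed Cy5 signal of the brown adipocyte markers was not highest there (92.4 times the array's 75th percentile, against 38.5 to 113.2 on the other arrays). Of the white adipocyte markers 8 of 9 were higher in PRA transgenics, where 54.2% of all tested probes were. Only 1 had an unadjusted limma p under 0.05 (Lipe, 0.42), where 9.02% of all tested probes did. As a multiple of each array's 75th percentile, the summed Cy5 signal of these markers was 1630 to 2461 in WT. In PRA transgenics it was 1506 to 2902. The part of adipocyte content in these values was not tested.

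Skeletal muscle, which oxidises fatty acids at a high rate, was unevenly present. Its markers averaged 2.26, -0.99 and 3.69 on the WT arrays and -0.94, -0.95, -1.16 and 2.95 on the PRA arrays, and their summed Cy5 signal ran from 3.29 to 340.5 in WT and from 4.16 to 111.6 in PRA transgenics. None of the 8 tested muscle markers was higher in PRA transgenics, where 54.2% of all tested probes were. Without the WT arrays of replicates 1 and 3 and the PRA array of replicate 4, a choice made after seeing the data, the median log2 fold change was 0.10 and that of Etfa -0.70. That leaves 1 WT array, which limma assumes to vary like the PRA arrays, so counts of calls there say little.

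**Figure D4:**
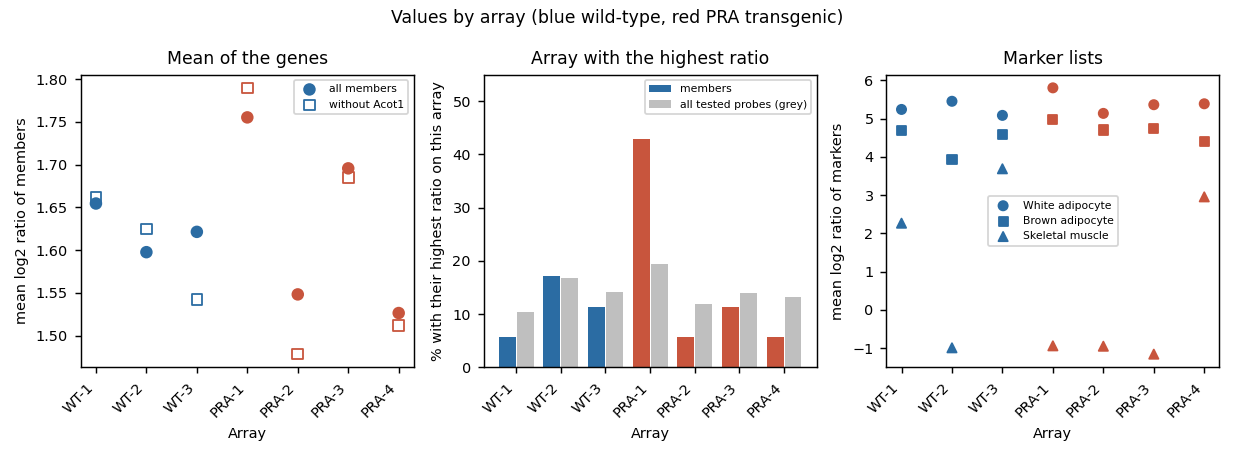
By array, the mean log2 ratio of the 35 genes with and without Acot1 (left), the percent of the genes and of all tested probes with their highest ratio on that array (middle), and the mean log2 ratio of 3 marker lists (right), with WT in blue and PRA transgenics in red. The first PRA array has the highest mean and 42.9% of the highest values.

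Against the reference RNA, which is from cultured cells, the genes were mostly higher in the gland. The ratio was above 0 on all 7 arrays for 30 genes, below 0 on all 7 for 2 genes, Cpt1c and Acad12, and on both sides for 3. For Acad12 this depended on the probe, since A_52_P671700 was above 0 on all 7 arrays. Of all tested probes 33.1% were above 0 on all arrays and 32% below.

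Other genes of fatty acid metabolism were drawn from a list of 53, of which 52 were tested and Acsl6 was not. In PRA transgenics 29 of the 52 were higher, and 7 passed at an unadjusted limma p under 0.05 (13.5%, against 9.02% of all tested probes). Of the 7, 3 were higher and 4 lower, and 0 passed after adjustment. The 7 include Slc27a2, which passed the filter only through the WT arrays. With the filter without genotype 6 passed, where 8.97% of all tested probes did. The lower genes included Pdk4, the kinase that shuts pyruvate dehydrogenase and so favors fatty acid use, with log2 ratios of 4.94, 4.92 and 5.22 in WT and of 4.40, 4.02, 3.98 and 4.57 in PRA transgenics. The groups were clearly separate, with a log2 fold change of -0.78 (SE 0.19, unadjusted p = 0.00382, adjusted p = 0.379 in limma), and -0.82 in Cy5 alone. The higher genes were the uptake protein Slc27a1 (0.57, unadjusted p = 0.0287), the coactivator Ppargc1b (0.54, unadjusted p = 0.0152) and the phosphatidate phosphatase Lpin1 (0.50, unadjusted p = 0.0182), all in limma.

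The other lower genes act on very long chains or in the peroxisome, and the reference channel was well above background on 0 of 7 arrays for each of them. They were the acyl-CoA synthetase Slc27a2 (-1.75, unadjusted p = 0.00326 in limma; Cy5 well above background on 3 of 3 WT and 3 of 4 PRA arrays, so that it was tested only through the WT arrays), the peroxisomal transporter Abcd2 (-0.88, unadjusted p = 0.0424) and the thioesterase Acot4 (-0.78, unadjusted p = 0.00644). Cy5 alone gave -1.18, -0.76 and -0.17, so that for Acot4 most of the ratio came from the reference. The muscle-type Cpt1b had -0.28 (unadjusted p = 0.549) and the carnitine carrier Slc25a20 -0.14 (0.501) in limma. All 8 genes of branched-chain and odd-chain breakdown were higher in PRA transgenics (54.2% of all tested probes were), with a median of 0.18, and all 4 further carnitine shuttle genes of the list were lower, with a median of -0.20. In both groups 0 genes passed at an unadjusted limma p under 0.05, where 9.02% of all tested probes did.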

How the data were processed

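RNA of 7 mammary glands was measured on SurePrint G3 mouse arrays. For each array the authors deposited Feature Extraction output (version 11.5.1.1 in the file headers, 12.0 in the labels), whose processed intensity values that software had background-subtracted and dye-normalized, with probe positions on mm9. A table of log2 values for the whole series, also deposited, matched these log2 ratios in scale and direction after each probe's median over the 7 arrays was subtracted.

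Control and outlier spots were left out, spots of a probe were averaged, and log2(Cy5/Cy3) was computed from the processed intensities. Dim values lower than background are surrogates set by the software and carry little order. Probes well above background in Cy5 on all arrays of 1 genotype were tested (34288 of 56605), and 22317 were not. The filter uses genotype, and an alternative without it is given below. PRA minus WT was fitted in R 4.3.3 with limma 3.58.1 (lmFit, then eBayes), and p-values were adjusted over all tested probes by the Benjamini-Hochberg method. Unadjusted p-values are named as such. On the 7 arrays 0 spots were saturated. The standard errors come from the spread between animals within genotypes. Each array is 1 animal.

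The 35 genes, the other pathway list, the marker lists and the alternatives were chosen with earlier results of these data known. Named with values on every array are genes with an unadjusted p under 0.05 or genotypes that do not overlap, Cpt1a, Acadm, Hadha and Ppara, and any gene said to be chosen later. Of the other pathway list, genes with an unadjusted p under 0.05 and Cpt1b and Slc25a20 are named, and a further gene of that rule is not reported here. In all 21 alternatives were run, 1 of them added later. The steps were tested on simulated data. No genome sequence was used. Probe sequences are from the scanner files.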

Additional observations from a re-analysis of the deposited data

Results flagged for a closer look

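No gene of fatty acid oxidation was flagged. Among the 46 sets of 4 PRA values examined for a sample far from the others (Dixon's test at the 95% level, which flags about 1 set in 20 by chance, or 2.3 here), 2 were flagged, and both were marker lists on the fourth PRA array. The mean log2 ratio of skeletal muscle markers was 2.95 there against -1.16 to -0.94 on the other PRA arrays, a gap of 0.947 of the whole range. That of fibroblast markers was 2.76 against 2.20 to 2.27, a gap of 0.87 of the range. The fourth PRA array held the lowest value of 8 of the 35 genes.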

How the results depend on the processing

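No alternative gave an adjusted p under 0.05 for any of the 35 genes (0 in all 21), and the median log2 fold change stayed between -0.00 and 0.10 (0.00 to 0.09 with each array left out in turn). The number of genes at an unadjusted p under 0.05, which was 1, was 4 with an intensity trend or array weights, 3 with normexp and loess, with both channels required above background (34 genes tested) or with array medians subtracted, and 2 with Cy5 alone, no filter, the filter without genotype, the methods' t-test, quantile normalization or the replicate number as a block. Leaving out each array in turn gave 0 to 3 genes (0 without WT replicate 2, PRA replicate 2 or PRA replicate 3), and it was 0 without the arrays with muscle markers, which leaves 1 WT array assumed to vary like the PRA arrays. Of all tested probes 11.8% passed with array weights and 8.87% with an intensity trend. With normexp and loess 7.55% passed, with the replicate number as a block 9.83%, and with each array left out in turn 6.65% to 12.3%. Etfa kept its direction in all 21 alternatives and was under 0.05 in 15, beside Hsdl2 in 10 and Acad11 in 9. Of probes, 7 passed, 3 to 10 with each array left out (3 without WT replicate 2, 4 without PRA replicate 2 or 3) and 3 without the arrays with muscle markers. Of the other pathway genes 7 passed, 4 with both channels required and 4 to 9 with each array left out (4 without WT replicate 2). The cause was not tested. With the replicate number as a block, Etfa had an unadjusted p of 0.114. Replicate numbers did not pair the animals (correlations of deviations 0.10, -0.30 and 0.04). PRA replicate 4 has no partner, and the block fit left out 40 probes with missing values. The slide as a block was not run, since there was 1 slide. Genes near background in the reference (Ppara) have uncertain ratios, and 7 arrays leave changes under about 1.5-fold unresolved for many genes.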
